A study of Mus musculus with 6 samples.

Results

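The genes described here are the thrombospondins (Thbs1, Thbs2, Thbs3, Thbs4 and Comp) and 5 other genes of matricellular proteins (Postn, Spp1, Sparc, Sparcl1 and Tnc), 10 of the 43629 genes counted in the left ventricles of 6 mice. They were taken by symbol. The list was chosen by the levels of Thbs4 in the caffeine and vehicle hearts, which had already passed the thresholds in the same comparison, so the treatment values of the 10 genes are a description and are not independent evidence of any change. The mice were male CD-1 F1 offspring at 1 year of age, 3 from dams that received normal saline (vehicle) and 3 from dams that received 20 mg/kg caffeine, in both cases by daily intraperitoneal injection from E6.5. The end of dosing is given as E9.5 in one field of the labels and as E10.5 in another. Both groups therefore share the injections, and the agent is the only difference in treatment that the sources give. The dam of each mouse is not given in the sources used here, so littermates within a group cannot be told from unrelated mice. The p-values of the fits set the difference between groups against the variation between these hearts, estimated with information from all genes tested. They do not account for variation between dams.

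Matricellular proteins are secreted into the extracellular matrix but act on cells, through integrins, CD36, CD47 and latent growth factors, more than they carry load. In the healthy adult ventricle most of them are scarce, and several are known to be made again after infarction or pressure overload. Thrombospondins 1 and 2 form trimers and inhibit the growth of blood vessels, and thrombospondin 1 activates latent TGF-beta. Thrombospondins 3, 4 and COMP form pentamers. Thrombospondin 4 also acts inside the cell, where it binds the endoplasmic reticulum stress sensor ATF6.

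Total counts ran from 7613011 to 10483101 per heart, and the totals of the caffeine hearts were all lower than those of the vehicle hearts. Levels are given as CPM, the count of a gene per 1000000 counts of its library in the 13092 genes tested, with these library totals scaled by TMM factors. A count of 3 corresponded to between 0.284 and 0.420 CPM on that scale. The tissue label fitted its markers. The summed level of 7 cardiomyocyte markers was between 62111 and 70937 CPM in the vehicle group and between 63431 and 66255 CPM in the caffeine group, and 6 skeletal muscle markers together stayed at or below 0.977 CPM in every heart. A gene was called at a Benjamini-Hochberg adjusted p below 0.05 over the 13092 genes tested and a fold change above 1.5, in edgeR's quasi-likelihood test. By that rule 14 genes (0.107%) were called, 11 of them (0.084%) higher in the caffeine group. For 1 gene taken alone, permuting 3 against 3 hearts exactly gives a two-sided p of at least 0.1.

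Of the 10 genes, 8 passed the filter on low counts, and Spp1 and Tnc did not. The promoter sequences of 7 of the 10 were matched by symbol in RefSeq (GRCm38.p6), and Thbs1, Comp and Sparcl1 had no entry. The 250 bases before the start of transcription are shown for Thbs4, the 1 member past the thresholds, for Thbs2, the thrombospondin nearest to it in level, and for Postn, which lay above in every caffeine heart without passing the thresholds. Thbs4 is at chr13:92794819-92795068 on the minus strand, Thbs2 at chr17:14694263-14694512 on the minus strand and Postn, for which the entry next to the annotated gene start is shown, at chr3:54360857-54361106 on the plus strand. Capitals mark every match, on either strand, to 7 motifs: TATAA, the GC box GGGCGG, the TEAD motif CATTCC, the AP-1 motif TGANTCA, the CCAAT box, the ATF core TGACGT and the CArG box bound by SRF.
Thbs4: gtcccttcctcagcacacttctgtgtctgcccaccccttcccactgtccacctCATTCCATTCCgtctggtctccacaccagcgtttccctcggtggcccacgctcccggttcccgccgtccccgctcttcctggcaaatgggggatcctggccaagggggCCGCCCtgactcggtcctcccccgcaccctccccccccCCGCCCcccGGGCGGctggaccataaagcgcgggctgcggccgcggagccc
Thbs2: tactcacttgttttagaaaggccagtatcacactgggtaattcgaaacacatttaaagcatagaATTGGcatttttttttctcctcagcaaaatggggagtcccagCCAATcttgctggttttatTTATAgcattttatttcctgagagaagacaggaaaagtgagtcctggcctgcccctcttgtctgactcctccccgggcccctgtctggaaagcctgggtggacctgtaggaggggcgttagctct
Postn: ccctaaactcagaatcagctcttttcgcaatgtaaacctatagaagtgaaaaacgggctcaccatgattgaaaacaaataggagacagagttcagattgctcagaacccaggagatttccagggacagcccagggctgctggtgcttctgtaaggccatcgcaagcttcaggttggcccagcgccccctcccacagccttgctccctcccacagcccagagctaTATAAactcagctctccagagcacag

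The Thbs4 promoter was 70.8% G and C, against 46.8% for Thbs2 and 52% for Postn. It held 3 GC boxes, 42, 51 and 89 bases before the start, and 2 CATTCC matches that share 1 base, 192 and 197 bases before it. At least 1 GC box was present in 32.7% of the 32851 mouse promoter windows of this length, and CATTCC in 12.6%. Thbs2 held 2 CCAAT boxes (in 33.8% of windows) and 1 TATAA match (in 22.8%), 125 bases before the start. Postn held only 1 match, TATAA, 26 bases before the start. None of these 3 windows held the AP-1 motif, TGACGT or the CArG box, which were present in 6.75%, 6.47% and 1.47% of windows. These are matches of letters, and binding of any factor was not measured.

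Thbs4 (ENSMUSG00000021702) lies on chromosome 13 of GRCm38 from 92751590 to 92794818. Its level was 14.7, 16.4 and 16.7 CPM in vehicle replicates 1 to 3 and 30.1, 30.9 and 33.1 CPM in the caffeine replicates. The lowest caffeine heart was thus far above the highest vehicle heart, and the replicates of each treatment lay close together. The means were 15.9 ± 1.10 CPM (SD, n = 3) and 31.4 ± 1.53 CPM (SD, n = 3), a ratio of 1.97 and a log2 fold change of 0.98 (SE 0.11). In RNA of whole ventricle, a different number of cells of a type and a different amount of RNA per cell cannot be told apart, here and for the genes that follow. These values rest on 488 counts in the vehicle group and 771 in the caffeine group. Thbs4 was the 1 member of the 10 past the thresholds, and nothing is read from that count, since the list was built around it. Without vehicle replicate 2 (log2 fold change 0.9998) or without caffeine replicate 3 (0.94) the fold stayed close to the reported 0.98 but the call was lost. Each of these fits called 4 genes in all, against 14 in the reported fit.

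Thbs1 (chromosome 2, 118111876 to 118127133) encodes the thrombospondin that platelets and stressed cells release. It was at 4.20, 7.29 and 3.75 CPM in the vehicle hearts and 7.14, 5.76 and 12.9 CPM in the caffeine hearts. The groups overlapped, and caffeine replicate 3 held the highest level. The log2 fold change was 0.76 (SE 0.33, 95% interval 0.03 to 1.48) and missed the thresholds (adjusted p = 0.555, edgeR). With no filter on low counts it was past both thresholds (adjusted p = 0.0397, edgeR), as were 1.07% of all genes in that fit. Over the alternative fits the fold ranged from 0.34 to 1.11, and the lowest value was that without caffeine replicate 3.

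Thbs2 (chromosome 17, 14665500 to 14694235) encodes the thrombospondin known to guard matrix integrity in the aged and loaded heart. It was at 29.3, 35.8 and 26.9 CPM in the vehicle hearts and 34.4, 24.6 and 25.6 CPM in the caffeine hearts. The groups overlapped widely, with caffeine replicate 1 among the vehicle values. The log2 fold change was −0.13 (SE 0.15, 95% interval −0.47 to 0.21), so that the interval did not reach a 1.5-fold change either way.

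Thbs3 and Comp, which encode pentameric relatives of thrombospondin 4, were scarce. Thbs3 was at 1.95, 4.07 and 2.53 CPM in the vehicle hearts and 3.08, 3.72 and 3.05 CPM in the caffeine hearts, with a log2 fold change of 0.20 (SE 0.31, 95% interval −0.47 to 0.88). Comp, which was first known from cartilage, was at 2.15, 1.32 and 0.709 CPM and at 0.560, 1.69 and 1.41 CPM, with a log2 fold change of −0.16 (SE 0.48, 95% interval −1.21 to 0.89). Both genes overlapped between the treatments, with 81 to 88 counts a group for Thbs3 and 31 to 43 for Comp, so that the intervals take in more than 1.5-fold. Leaving out vehicle replicate 1 turned the sign of each, to −0.01 for Thbs3 and 0.28 for Comp, and leaving out caffeine replicate 1 turned that of Comp, to 0.15.

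**Figure D1:**
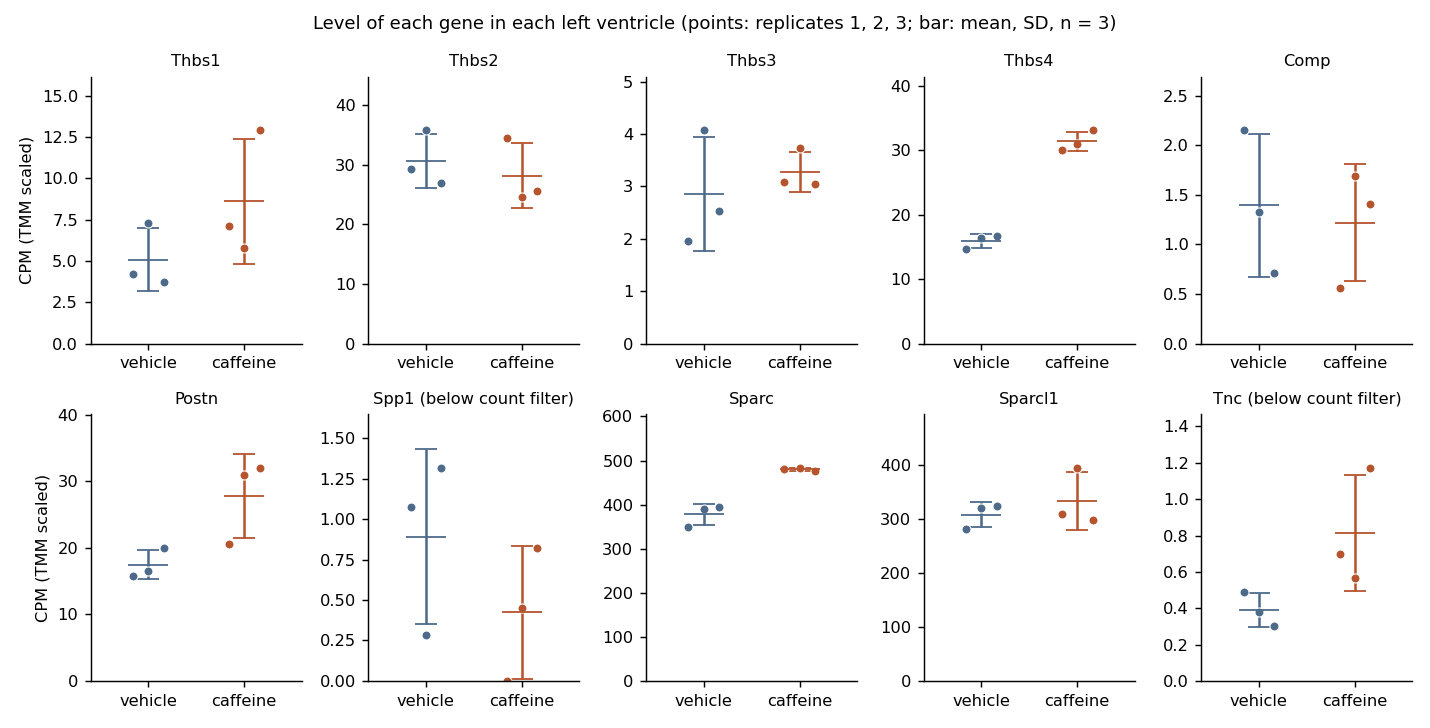
Level of each of the 10 genes in CPM (vertical axes, starting at 0, with a scale of their own for each gene) in the vehicle and caffeine groups. Points are hearts, and bars are the mean and SD (n = 3). Thbs4 runs from 14.7 to 16.7 CPM in the vehicle group and from 30.1 to 33.1 CPM in the caffeine group, while Thbs2, Thbs3 and Comp overlap between the groups.

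Levels of different genes were compared per kilobase of exon, with exon lengths from GENCODE. On this scale Thbs4 (4.84 ± 0.34 CPM per kb, SD, n = 3) and Thbs2 (4.38 ± 0.65) overlapped in the vehicle group and were the main thrombospondins. Thbs1 (0.836 ± 0.317), Thbs3 (0.591 ± 0.227) and Comp (0.470 ± 0.244) followed and did not differ from one another beyond their spread. In the caffeine group Thbs4 reached 9.54 ± 0.47 CPM per kb and stood clear of Thbs2 at 4.03 ± 0.77 (SD, n = 3 for each). Thbs1 (1.42 ± 0.62), Thbs3 (0.681 ± 0.079) and Comp (0.411 ± 0.199) followed there without overlap between neighbours. The summed level of the 5 genes was 10.5, 12.6 and 10.3 CPM per kb in the vehicle hearts and 16.1, 15.2 and 16.9 CPM per kb in the caffeine hearts, a ratio of means of 1.45. Without Thbs4 the sum of the other 4 was 6.28 ± 1.21 and 6.54 ± 0.63 CPM per kb (SD, n = 3), a ratio of 1.04.

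The composition of thrombospondin RNA differed accordingly. Thbs4 made up 42.6%, 39.6% and 49.3% of the summed level per kb in the vehicle hearts and 56.9%, 61.8% and 59.4% in the caffeine hearts. Thbs2 made up 40.0%, 40.6% and 37.3% in the vehicle hearts and 30.6%, 23.1% and 21.6% in the caffeine hearts. The lower share of Thbs2 stood beside an overlapping level of Thbs2, as the shares of a sum move together. The shares of Thbs1, Thbs3 and Comp overlapped between the treatments.

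**Figure D2:**
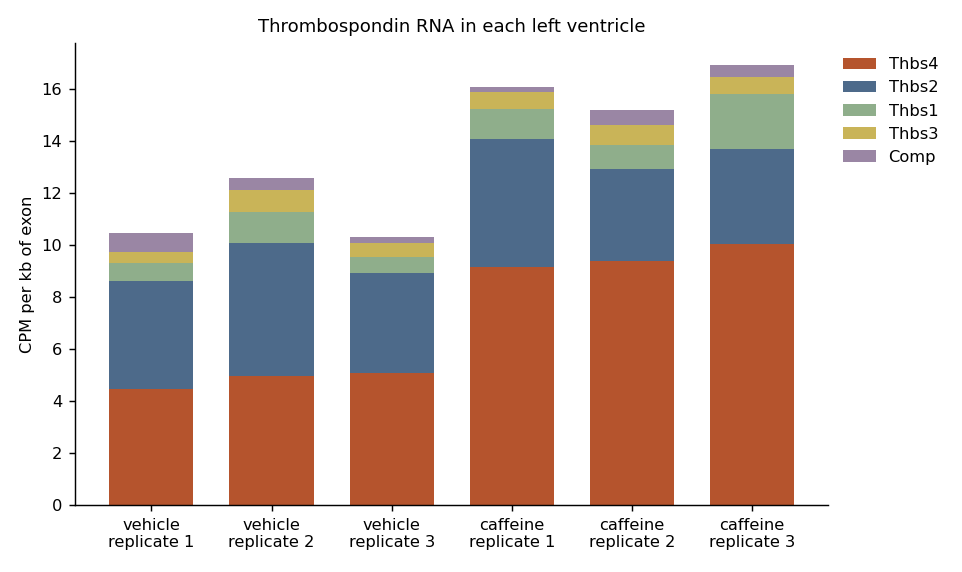
Stacked level of the 5 thrombospondin genes in CPM per kb of exon (vertical axis, from 0) in each heart. The Thbs4 segment is taller in all 3 caffeine hearts, 9.54 against 4.84 CPM per kb on average, and the other segments together average 6.54 and 6.28 CPM per kb.

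Among the other matricellular genes, Sparc and Sparcl1 supplied most of the RNA. They encode SPARC, which binds collagen and assists its assembly, and its close relative hevin, and together held between 87.5% and 90.8% of the summed CPM of the 10 genes in every heart. Sparc (chromosome 11, 55394500 to 55423183) was at 349.7, 389.8 and 393.5 CPM in the vehicle hearts and 480.0, 483.6 and 476.7 CPM in the caffeine hearts. The caffeine hearts lay above the vehicle hearts without overlap. They differed among themselves by only a few CPM, with a coefficient of variation of 0.715%, against 6.43% in the vehicle group. At their counts of 3429, 4284 and 4065, counting error alone is larger than 0.715%. The closeness of these 3 values is therefore not read as uniformity, and the difference in spread was not tested. The log2 fold change was 0.35 (SE 0.08) and passed neither threshold (adjusted p = 0.196, edgeR). In DESeq2's test its adjusted p was 0.0325 at the same fold, below 1.5, while over all alternatives the adjusted p ran up to 0.421.

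Sparcl1 (chromosome 5, 104079111 to 104113733) was at 280.5, 319.8 and 322.7 CPM in the vehicle hearts and 308.3, 394.2 and 296.8 CPM in the caffeine hearts. The groups overlapped, and the high value of caffeine replicate 2 carried the difference in means. Its log2 fold change was 0.11 (SE 0.12, 95% interval −0.14 to 0.37), and without caffeine replicate 2 it was −0.02. Per kb, Sparcl1 (105 ± 8.02) and Sparc (99.7 ± 6.42) overlapped in the vehicle group, and in the caffeine group Sparc (127 ± 0.906) and Sparcl1 (113 ± 18.1) still overlapped (CPM per kb, SD, n = 3).

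Postn (chromosome 3, 54361109 to 54391037) encodes periostin, a mark of activated fibroblasts in the injured heart. It was at 15.8, 16.6 and 20.0 CPM in the vehicle hearts and 20.6, 30.9 and 32.0 CPM in the caffeine hearts. The groups did not overlap, but caffeine replicate 1 stood just above the highest vehicle heart and well below the other caffeine hearts. The log2 fold change was 0.68 (SE 0.17), past 1.5-fold but not past the threshold on adjusted p (0.228, edgeR). With edgeR's exact test (adjusted p = 0.0436) and with no filter on low counts (adjusted p = 0.000554) it was past both thresholds, and its adjusted p over all alternatives reached 0.538. The share of all genes past both thresholds also rose, from 0.107% to 0.718% with the exact test and to 1.07% with no filter.

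Tnc, encoding tenascin-C, and Spp1, encoding osteopontin, a ligand of integrins and CD44, were near the limit of detection. Tnc had 5, 4 and 3 counts in the vehicle hearts and 5, 5 and 10 in the caffeine hearts, or 0.304 to 0.488 CPM and 0.564 to 1.17 CPM. The order of the groups without overlap rests on differences of a few counts. Spp1 had 11, 3 and 13 counts in the vehicle hearts and 0, 4 and 7 in the caffeine hearts, and the count of 0 in caffeine replicate 1 allows up to 0.420 CPM. Neither gene entered the reported fit, and in the fit with no filter, which held all 10 members, neither was past the thresholds.

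**Figure D3:**
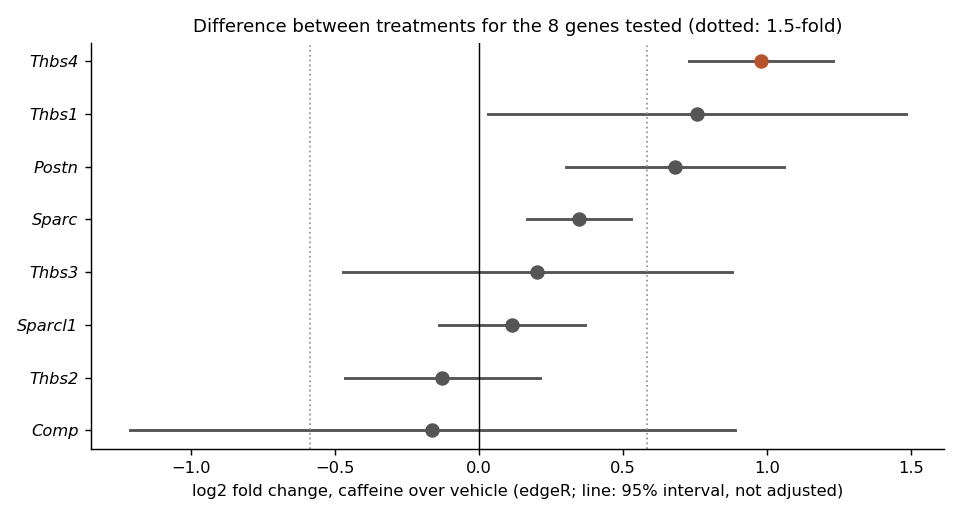
Log2 fold change of caffeine over vehicle (horizontal axis) for the 8 genes that passed the count filter, with 95% intervals that are not adjusted for the number of genes. The filled orange point is Thbs4 (0.98), the 1 gene past both thresholds, and the dotted lines mark 1.5-fold.

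Across the 10 genes, the caffeine hearts lay above the vehicle hearts without overlap for Thbs4, Sparc, Postn and Tnc, and below for none. Tnc was not among the genes tested, so that 3 of the 8 members tested lay above. Over all genes tested, 7.11% lay above in this way and 7.12% below. The count of members is only a description because the list was chosen with these values known. Of the 8 members tested, 6 had a log2 fold change above 0 and 3 (Thbs4, Thbs1 and Postn) differed by more than 1.5-fold. The median over all 8 was 0.27. Over all genes tested 50.2% were above 0 with a median of 0.00, and 4.56% differed by more than 1.5-fold. The summed level of the 10 genes was 699.8, 791.6 and 788.4 CPM in the vehicle hearts and 885, 976 and 883 CPM in the caffeine hearts, a ratio of means of 1.20 that was mostly Sparc and Sparcl1.

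The relatives of these genes were then examined from lists written down with the earlier results known. Of 6 CCN genes, which encode matricellular growth regulators, 4 were tested and none was past the thresholds, with log2 fold changes from −0.37 (Ccn3) to 0.35 (Ccn2, also known as connective tissue growth factor). Of 16 further genes of the SPARC, tenascin, periostin and fibulin families, 11 were tested and none was past the thresholds. Their median was 0.08, and the extremes were Fstl1 (0.54, SE 0.09, adjusted p = 0.0584, edgeR), a secreted SPARC relative, and Spock2 (−0.53, SE 0.11, adjusted p = 0.125, edgeR), a SPARC-domain proteoglycan. Fstl1 was at 75.2, 87.2 and 78.9 CPM in the vehicle hearts and 123, 109.5 and 120.2 CPM in the caffeine hearts. Spock2 was at 34.3, 36.7 and 32.5 CPM and at 25.6, 23.6 and 22.6 CPM. Neither gene overlapped between the treatments, and both missed the threshold on adjusted p.

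Of 22 receptors and binding partners, 21 were tested and none was past the thresholds, with 14 above 0 and a median log2 fold change of 0.07. Cd36 and Cd47, receptors of thrombospondin 1, had log2 fold changes of −0.06 (SE 0.09) and 0.08 (SE 0.09). Itga9, an integrin chain that binds tenascin-C and osteopontin, had the highest value (0.44, SE 0.11, adjusted p = 0.199, edgeR) and was at 81.4, 92.1 and 74.7 CPM in the vehicle hearts against 102, 123 and 112 CPM in the caffeine hearts, without overlap. Itga4 had the lowest (−0.78, SE 0.36, adjusted p = 0.579, edgeR), at levels between 1.12 and 3.12 CPM. Cacna2d1, the calcium channel subunit known as a thrombospondin receptor, was at 311.9, 288.4 and 257.1 CPM in the vehicle hearts and 213.2, 190.0 and 180.6 CPM in the caffeine hearts. Every caffeine heart was below every vehicle heart, and the log2 fold change was −0.56 (SE 0.10, adjusted p = 0.0791, edgeR). It was past the thresholds in 1 of 13 fits, the one with library sizes not corrected for composition (−0.64, adjusted p = 0.0193, edgeR), where the median of all genes shifted to −0.08.

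Of 11 genes for TGF-beta ligands and their latency proteins all were tested, and log2 fold changes ran from −0.33 (Lrrc32) to 0.44 (Ltbp2) with a median of 0.16. Of 15 matrix proteases and inhibitors 11 were tested, from −0.34 for Adamts7, which cleaves COMP, to 0.69 for Timp1, with a median of 0.03. Of 17 genes for ATF6 and endoplasmic reticulum folding 16 were tested, with a median of 0.03. Among them Hspa5, the main chaperone target of ATF6, had a log2 fold change of 0.07 (SE 0.08), while Sdf2l1 had the highest (0.72, SE 0.24, adjusted p = 0.372, edgeR) and Herpud1 the lowest (−0.22). None of these 3 lists held a gene past the thresholds.

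Of all 96 companion genes, immediate early genes included, 81 were tested, and the quasi-likelihood test of edgeR put 0 of them past the thresholds. At an unadjusted p below 0.05, 14 were higher and 4 lower in the caffeine group. EdgeR's exact test and DESeq2 each called 1, Atf3, and called 0.718% and 0.512% of all genes tested. In the reported fit Atf3 had a log2 fold change of 1.10 (SE 0.22, adjusted p = 0.122, edgeR). Of all genes tested, 8.82% had an unadjusted p below 0.05, 579 of them higher and 576 lower in the caffeine group.

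**Figure D4:**
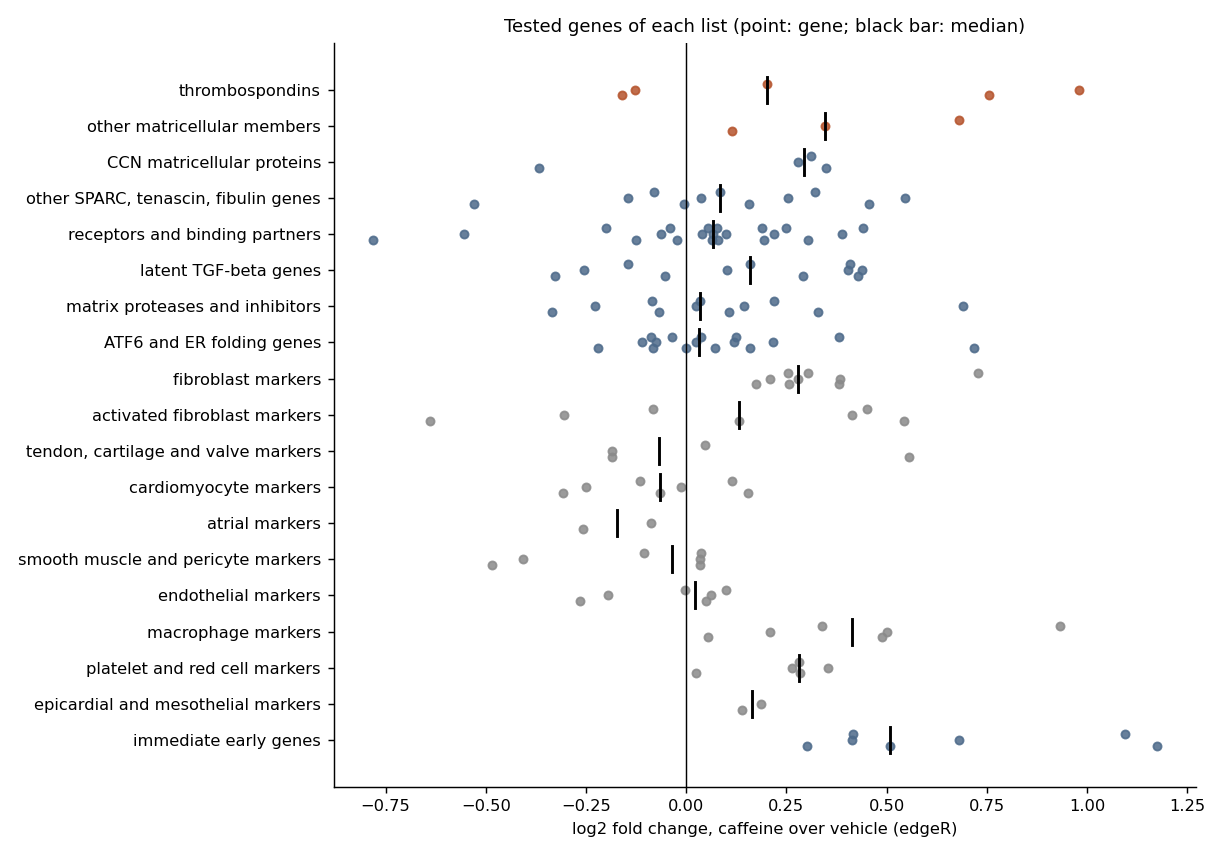
Log2 fold change of caffeine over vehicle (horizontal axis) for each tested gene of the thrombospondins and other matricellular members (orange), of the companion lists (blue) and of the marker lists (grey), with the median of each list as a black bar. The other matricellular members, the immediate early genes and the fibroblast, macrophage, platelet and red cell, and epicardial markers lie wholly to the right of 0, the atrial markers to the left, and the other lists on both sides of it.

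In some marker lists of other cell types the log2 fold changes had the same direction as those of Thbs4, Sparc and Postn. All 9 fibroblast markers, among them collagen genes and Dcn, had log2 fold changes above 0, from 0.17 (Col1a2) to 0.73 (Col3a1, SE 0.17, adjusted p = 0.189, edgeR). Of all genes tested, 50.2% were above 0. Col3a1 and Dcn lay above without overlap, as did 7.11% of all genes tested, and the other fibroblast markers overlapped between the treatments. No fibroblast marker was past the thresholds in the reported fit. Col3a1 was past both in 3 of 13 fits. These were edgeR's exact test (adjusted p = 0.0112), DESeq2 (adjusted p = 0.00221) and edgeR with no filter on low counts (adjusted p = 1.33e-08). Of all genes, 0.718%, 0.512% and 1.07% were past both in those fits. The summed level of the 9 fibroblast markers was between 1799 and 2160 CPM in the vehicle group and between 2253 and 2751 CPM in the caffeine group. The means were 2001 and 2496 CPM. Most of the sum was Gsn (868 to 1358 CPM over all hearts) and Dcn (505 to 767 CPM). Within each group the sum was lowest in replicate 3, where Thbs4 and Postn were highest. The single markers differed in this. Within the caffeine group Gsn, Dcn and Pdgfra were lowest in replicate 3, Col3a1, Lum and Col1a2 were highest there, and the others lay between. Sparc was highest in replicate 3 in the vehicle group and lowest there in the caffeine group. Sparc amounted to 19.0 ± 2.52% of that sum in the vehicle hearts and 19.4 ± 1.86% in the caffeine hearts (SD, n = 3). For Postn the figures were 0.883 ± 0.195% and 1.14 ± 0.349%, which overlapped. For Thbs4 they were 0.717%, 0.758% and 0.929% in the vehicle hearts and 1.09%, 1.24% and 1.47% in the caffeine hearts, which did not overlap, with a ratio of means of 1.58. The part of the fibroblast markers in these results was not tested.

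Markers of activated fibroblasts showed no common direction. Of 8 genes 7 were tested, with a median log2 fold change of 0.13, from −0.64 (Fap) to 0.54 (Meox1, SE 0.14, adjusted p = 0.226, edgeR), and Cthrc1 was below the filter. The tendon, cartilage and valve markers, tissues in which Thbs4 and Comp are abundant, differed in level. Scx was at 13.9 CPM or more and Prg4 at 7.11 CPM or more in every heart, while Tnmd reached at most 0.117 CPM and Col2a1 had 0 counts in every heart. The 9 genes together amounted to between 30.4 and 38.1 CPM in the vehicle group and between 30.1 and 39.6 CPM in the caffeine group. The 4 of them that were tested ran from −0.19 (Fmod) to 0.56 (Sox9), and all 4 overlapped between the treatments. Their part in the values of Thbs4 was not tested.

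The immediate early genes, transcription factors and the like that respond first to a stimulus, all stood above 0 among those tested. Of 9 genes 7 were tested, with log2 fold changes from 0.30 (Jun) to 1.17 (Fos, SE 0.32, adjusted p = 0.269, edgeR) and a median of 0.51, and none was past the thresholds. Egr2 and Fosb were below the filter. Egr2 overlapped between the treatments. Fosb was lower in every caffeine heart (0 to 0.235 CPM, against 0.304 to 0.488 CPM), near the limit of detection. The summed level of the 9 genes was between 131.3 and 159.5 CPM in the vehicle group and between 197.4 and 205.2 CPM in the caffeine group, without overlap. All 6 macrophage markers were above 0, from 0.05 (Cd68) to 0.93 (Adgre1, SE 0.24, adjusted p = 0.226, edgeR), with summed levels of 171.0 to 270.9 CPM and 205.9 to 403.2 CPM that overlapped. Adgre1 and Csf1r lay above without overlap, and the other macrophage markers overlapped between the treatments. Most of the macrophage sum was Lyz2 and C1qa, which were among those that overlapped. Adgre1 was past both thresholds in 2 of 13 fits. These were edgeR's exact test (adjusted p = 0.0417) and edgeR with no filter on low counts (adjusted p = 0.00596). Of all genes, 0.718% and 1.07% were past both in those fits, against 0.107% in the reported fit. The sign of Cd68 turned with library sizes not corrected for composition. Thbs4 amounted to 10.8 ± 0.466% of the summed immediate early genes in the vehicle hearts and 15.5 ± 1.06% in the caffeine hearts (SD, n = 3), without overlap. Sparc amounted to 256 ± 11.04% and 238 ± 3.26% of that sum, lower in the caffeine group without overlap, and Postn to 11.8 ± 1.34% and 13.8 ± 3.24%, which overlapped (SD, n = 3). Relative to the summed macrophage markers all 3 overlapped between the treatments, with ratios of means of 1.49 for Thbs4, 0.959 for Sparc and 1.23 for Postn. The part of either list in the values of the 10 genes was not tested.

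All 5 tested platelet and red cell markers were above 0, from 0.02 (Hba-a1) to 0.35 (Pf4) with a median of 0.28, and overlapped between the treatments. Their list summed to between 636.7 and 1166 CPM in the vehicle group and between 693.2 and 1486 CPM in the caffeine group, and its part in the values of the 10 genes, Thbs1 included, was not tested. None of these markers or of those that follow was past the thresholds. Log2 fold changes ran from −0.31 (Myh6) to 0.15 (Actc1) over the cardiomyocyte markers, from −0.49 (Cnn1) to 0.04 (Rgs5) over the smooth muscle and pericyte markers and from −0.27 (Flt1) to 0.10 (Vwf) over the endothelial markers. They ran from −0.26 (Myl4) to −0.09 (Nr2f2) over the atrial markers and from 0.14 (Wt1) to 0.19 (Upk3b) over the epicardial markers. Rgs5 and Hba-a1 changed sign with library sizes not corrected for composition. No skeletal muscle or adipocyte marker passed the count filter, and the adipocyte markers together stayed at or below 1.95 CPM.

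The genes whose log2 CPM followed that of Thbs4 most closely over the 6 hearts were Ifi44 (Pearson r = 0.994), Tspan8 (0.989), Gm10784 (0.989), Pea15a (0.986) and Tfcp2l1 (0.976). As the hearts of the 2 treatments were far apart for Thbs4, this likeness mostly restates the difference between treatments. Pea15a, the most abundant of them, was at 90.9, 98.7 and 103 CPM in the vehicle hearts and 128, 126 and 131 CPM in the caffeine hearts. Of the 5 genes only Tspan8 was itself past the thresholds, with 3 counts in the vehicle group and 62 in the caffeine group. The hearts ranged from 1.07 to 3.75 CPM over Ifi44, Gm10784 and Tfcp2l1.

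The library kit is not stated to keep strand, so reads of genes that overlap could not be told apart. Exons of Thbs3 overlap those of Mtx1 on the opposite strand over 6.59% of their length, and Mtx1 was at 21.6 to 26.7 CPM with a log2 fold change of −0.09. Exons of Thbs1 overlap Gm29233 over 3.43% and those of Tnc overlap 8030451A03Rik over 2.27% of their length, both on the opposite strand and both with 0 counts in every heart. Exons of Spp1 overlap Gm42793, on the same strand, over 18.8% of their length. No annotated exon overlapped those of Thbs4, Thbs2, Comp, Postn, Sparc or Sparcl1.

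The fold of Thbs4, Postn and Sparc was followed through 12 alternative fits. Thbs4 stayed between 0.89 and 1.01 on the log2 scale and was past both thresholds in 11 of the 13 fits, the reported one included. Postn stayed between 0.57 and 0.85 and was past them in 2. Sparc stayed between 0.26 and 0.38, below 1.5-fold in each of them. All 3 kept a positive sign in every fit. For each of them every caffeine heart was above every vehicle heart, so leaving out a heart could hardly turn the sign. The fits reuse the same 6 hearts from which Thbs4 was chosen. They describe how the values depend on the processing and are not further evidence of a change.

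**Figure D5:**
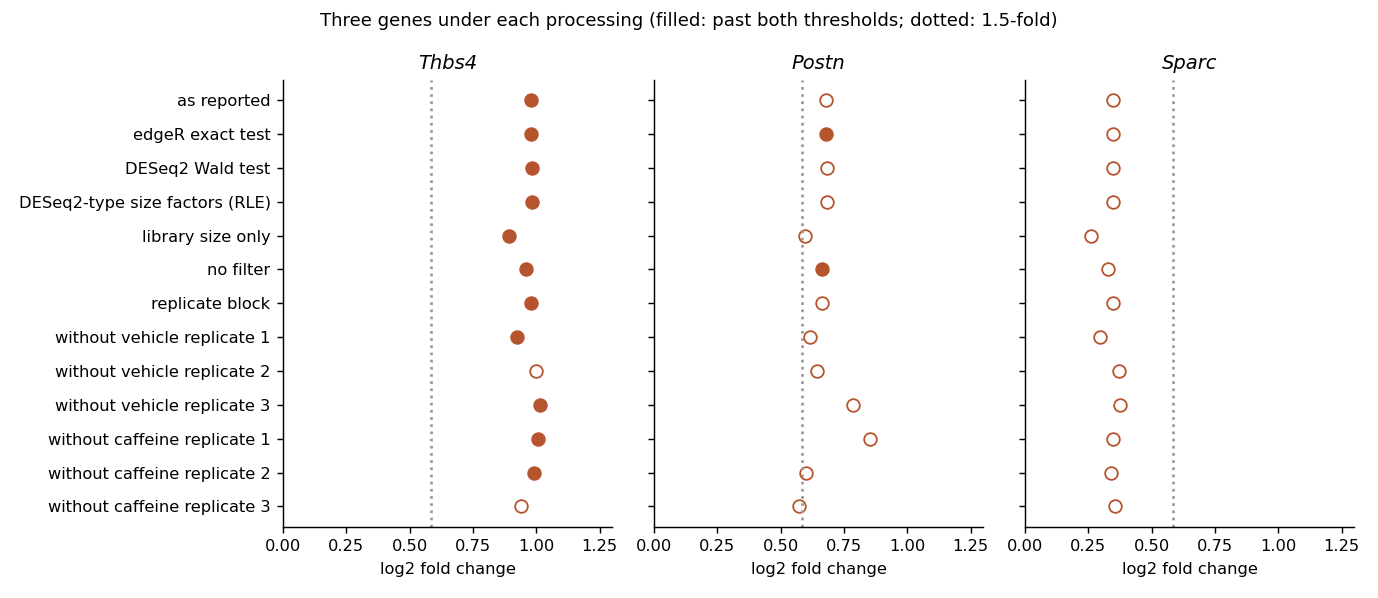
Log2 fold change of caffeine over vehicle (horizontal axes) for Thbs4, Postn and Sparc under the reported fit and each of the 12 alternatives (rows). Filled points are past both thresholds and dotted lines mark 1.5-fold. Thbs4 spans 0.89 to 1.01, Postn 0.57 to 0.85 and Sparc 0.26 to 0.38.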

How the data were processed

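Poly(A) RNA of 6 left ventricles was sequenced as single-end reads. The authors used FastQC for quality control, Tophat2 for alignment to GRCm38 (mm10) and HTSeq for counting over the genes of Ensembl release 79. Versions and the strand setting are not given in the sources used here. The deposited values are raw counts for 43629 genes per sample, without normalization, and no replicates were pooled. Replicates of a treatment differed by more than counting noise (chi-square per degree of freedom 4.17 to 10.4), so each library was 1 sample.

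Here genes were filtered with filterByExpr (minimum count 10, minimum total 15), leaving 13092, scaled by TMM and tested with edgeR 4.0.16 (glmQLFit, glmQLFTest, treatment only) in R 4.3.3, with Benjamini-Hochberg adjustment over all of them. SE is the absolute log2 fold change divided by the square root of F. Alternatives were edgeR's exact test, DESeq2 1.42.0, other size factors, no filter, the replicate number as a block and each replicate left out. Positions and exon lengths are from GENCODE M21, and likeness to Thbs4 used log2 CPM with a prior count of 2. Intervals of counts and floors cover counting error only.

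The members, gene lists and tests were chosen with earlier results of these data known. Named genes are the 10 members, from each list the genes past the thresholds or else the highest and lowest, the 5 genes most like Thbs4, and genes overlapping a member. Cd36, Cd47, Cacna2d1, Hspa5, Atf3, Fosb, Egr2, Dcn, Gsn, Lum, Pdgfra, Csf1r, Lyz2, C1qa, Cthrc1, Col2a1, Scx, Prg4 and Tnmd were named after their values were seen. Hearts with the same replicate number did not deviate together (r = 0.045, −0.03 and −0.0375 across 13092 genes). The numbers thus gave no sign of pairing over the genes as a whole, which cannot exclude pairing that affects only some genes.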

Additional observations from a re-analysis of the deposited data

How the results depend on the processing

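The 14 genes past the thresholds became 94 with edgeR's exact test, 67 with DESeq2, 27 with library size only (12 higher and 15 lower in caffeine, against 11 and 3), 240 with no filter, and between 4 and 28 with a replicate left out. The 1 member past them became 2 with the exact test and 3 with no filter, and between 0 and 1 with a replicate left out, 0 without vehicle replicate 2 or without caffeine replicate 3. Companion genes went from 0 to 1 with the exact test (Atf3), with DESeq2 (Atf3) and with library size only (Cacna2d1), and to 3 with no filter (Atf3, Fos and Nr4a1). With the replicate number as a block 40 genes were past the thresholds, and of the members and companions Thbs4 alone. Over the genes as a whole the numbers gave no sign of pairing the hearts. The difference in the Thbs4 share, 15.6 percentage points, was between 13.4 and 18.3 in the alternatives.

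With library size only the sign turned for Rgs5 (−0.0558), Cd68 (−0.0230) and Hba-a1 (−0.0849). With a replicate left out it turned for Thbs3, Comp, Sparcl1 and 9 marker genes. The log2 fold changes then ran from −0.00846 to 0.55 (Thbs3), −0.47 to 0.28 (Comp), −0.0245 to 0.19 (Sparcl1), −0.37 to 0.0975 (Fmod), −0.0497 to 0.11 (Rgs5), −0.96 to 0.12 (Cnn1), −0.18 to 0.69 (Vwf), −0.17 to 0.31 (Cd68), −0.0541 to 0.54 (Pf4), −0.25 to 0.27 (Hba-a1), −0.77 to 1.03 (Upk3b) and −0.11 to 0.32 (Wt1). Over 48 genes and 12 alternatives, 538 of 576 values kept sign and call. The cause of these changes was not tested. Depth limits Spp1, Tnc, Comp and Thbs3, at 11 to 88 counts a group.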
